A study of Homo sapiens with 3 samples.

Results

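SP1 summits that lay beside the ends of neighbouring genes were examined in H1299 cells. A summit is the single base at which a called peak was highest, and a summit was taken as lying at a shared gene end where it fell within 1000 bases of a span end of at least 2 different protein-coding genes in RefSeq's annotation of GRCh38.p14. Chromosome 19 was left out. Of 4942 SP1 summits on the other chromosomes, from a list of 5570, 499 met this rule, or 10.1% (95% Wilson interval 9.29 to 10.97). A further 1553 summits lay at an end of 1 gene only, and 2890 at none. The scores of the summits were not used to choose them.

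H1299 is an established line of human non-small cell lung cancer, labelled by the submitters as adenocarcinoma. It was profiled by CUT&RUN, in which an antibody tethers a nuclease to its target in nuclei and the released DNA is sequenced. There were 3 libraries of the same line, with no treatment named in the labels, 1 with an SP1 antibody, 1 with an antibody to histone H3 acetylated at lysine 27 (H3K27ac) and 1 with IgG as negative control. Results come from the SP1 and H3K27ac libraries, that of IgG was not analysed here, and with 1 library per antibody no value has a replicate or a test.

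SP1 is a zinc-finger transcription factor that binds GC boxes in the promoters of many housekeeping genes, most of which lack a TATA box. Many human genes stand head to head, with their starts close together on opposite strands, so that a single stretch of DNA serves as a bidirectional promoter for both. Such stretches are typically GC-rich CpG islands, and DNA repair, mitochondrial and other housekeeping genes are often arranged in this way. H3K27ac marks the nucleosomes of active promoters and enhancers.

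Promoters of 6 head-to-head pairs are shown first, since each holds the summit base itself and together they show how the letters differ between strong shared ends. They were picked, after their values were seen, from the 10 highest-scoring of such RefSeq promoter windows. A window is 300 bases long, 250 before the gene's start and 50 after it, and it is printed 5′ to 3′ on the gene's own strand, from GRCh38.p14. Capitals mark GC boxes, GGGCGG or its complement on the other strand. A match to these letters is a description and not a binding site call.
SNRPD3: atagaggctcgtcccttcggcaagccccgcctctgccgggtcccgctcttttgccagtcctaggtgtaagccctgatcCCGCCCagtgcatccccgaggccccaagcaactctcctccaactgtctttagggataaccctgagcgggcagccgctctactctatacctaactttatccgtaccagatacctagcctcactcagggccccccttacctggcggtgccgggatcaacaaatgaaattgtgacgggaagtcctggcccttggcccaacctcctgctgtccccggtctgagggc
MEPCE: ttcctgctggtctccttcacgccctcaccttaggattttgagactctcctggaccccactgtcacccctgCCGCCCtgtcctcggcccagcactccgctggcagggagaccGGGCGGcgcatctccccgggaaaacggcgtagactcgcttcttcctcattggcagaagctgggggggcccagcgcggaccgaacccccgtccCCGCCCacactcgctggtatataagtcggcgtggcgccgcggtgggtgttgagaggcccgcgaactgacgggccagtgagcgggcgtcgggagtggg
MYL11: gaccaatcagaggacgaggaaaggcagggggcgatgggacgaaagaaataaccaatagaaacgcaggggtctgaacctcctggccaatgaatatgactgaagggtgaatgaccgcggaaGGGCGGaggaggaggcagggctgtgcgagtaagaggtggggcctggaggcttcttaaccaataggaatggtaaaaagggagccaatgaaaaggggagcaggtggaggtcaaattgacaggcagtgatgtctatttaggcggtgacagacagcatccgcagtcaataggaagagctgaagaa
POLR2A: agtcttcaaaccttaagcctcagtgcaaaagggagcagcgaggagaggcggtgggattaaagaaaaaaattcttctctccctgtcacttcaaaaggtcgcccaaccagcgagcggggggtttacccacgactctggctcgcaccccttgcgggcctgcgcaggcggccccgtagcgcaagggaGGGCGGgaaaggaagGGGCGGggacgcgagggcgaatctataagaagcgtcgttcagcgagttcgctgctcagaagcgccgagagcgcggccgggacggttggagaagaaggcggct
MRPS18B: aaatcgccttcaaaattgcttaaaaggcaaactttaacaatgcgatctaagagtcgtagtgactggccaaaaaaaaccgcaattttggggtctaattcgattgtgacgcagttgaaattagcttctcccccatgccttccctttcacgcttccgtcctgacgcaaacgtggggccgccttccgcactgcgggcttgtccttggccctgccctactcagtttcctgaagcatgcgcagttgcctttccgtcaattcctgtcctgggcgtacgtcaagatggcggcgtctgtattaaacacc
VPS35: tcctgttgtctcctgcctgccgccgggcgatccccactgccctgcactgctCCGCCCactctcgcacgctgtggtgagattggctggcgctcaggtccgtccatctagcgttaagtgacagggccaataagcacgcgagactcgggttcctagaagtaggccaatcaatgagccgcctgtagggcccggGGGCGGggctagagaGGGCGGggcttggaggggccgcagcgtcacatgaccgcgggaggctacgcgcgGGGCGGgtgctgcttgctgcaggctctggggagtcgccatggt

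The SNRPD3 window was at chr22:24555400-24555699 on the plus strand. SNRPD3 encodes a core Sm protein of the spliceosome, and its summit, scoring 36.4, was base 179 of the window, 72 bases before the start. The window held 1 GC box. Its partner GUCD1 starts inside SNRPD3, 244 bases past its start, so that the 2 genes overlap. The MEPCE window, chr7:100428540-100428839 on the plus strand, held 3 GC boxes, and the summit at base 9 scored 23.3. MEPCE encodes the enzyme that caps 7SK RNA, and 86 bases lay between its start and that of ZCWPW1, a histone reader gene.

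MYL11 encodes a myosin light chain of fast skeletal muscle, and it shares its start region with TBC1D10B, a GTPase-activating protein gene of the Rab pathway. Its window, chr16:30370684-30370983 on the plus strand, held 1 GC box and 5 CCAAT boxes on both strands together, and the summit at base 150 scored 22.7. The POLR2A window was at chr17:7484116-7484415 on the plus strand and held 2 GC boxes. POLR2A encodes the largest subunit of RNA polymerase II with 116 bases between its start and that of the zinc-finger gene ZBTB4. Its summit, at base 3 of the window, scored 21.6 and was 183.5 bases from the centre of the nearest GC box.

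The MRPS18B window, chr6:30617590-30617889 on the plus strand, held no GC box on either strand. It held 1 TGCGCA, the core of the NRF1 motif, and 1 AAGATGGC, the core of the YY1 motif. MRPS18B, a mitochondrial ribosomal protein gene, faces PPP1R10, a regulatory subunit gene of protein phosphatase 1, over a gap of 596 bases, and their summit scored 19.5. The VPS35 window, chr16:46689129-46689428 on the minus strand, held 4 GC boxes and 3 CCAAT boxes. VPS35 belongs to the retromer, which recycles membrane proteins, and its partner ORC6 encodes a subunit of the origin recognition complex. Their summit scored 19.1 and stood 37.5 bases from the centre of the nearest GC box. Strong summits at shared ends thus stood in windows with between 0 and 4 GC boxes.

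The 499 summits belonged to 447 gene pairs, the pair of a summit being its 2 nearest genes by their nearest ends, and 892 genes had such a summit within reach. Most of the summits, 481, reached 2 genes, 17 reached 3 and 1 reached 4. The summit with 4 lay at chromosome 20 position 10434426 and scored 7.31, between MKKS, a chaperonin-like gene of cilium assembly, and SLX4IP, with LOC128706665 and LOC128706666 on the same start as MKKS. A summit scoring 36.0 on chromosome 11 reached STX5, a Golgi SNARE gene, TEX54 and WDR74, a ribosome biogenesis gene. Genes with LOC names were in the pair of 18 summits.

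The strand of both genes could be read for 367 of the 499 summits, and these were mostly at gene starts facing away from each other. Head-to-head pairs made up 290 of them, or 79.0% (74.6 to 82.9). In 54 cases (14.7%) the start of 1 gene lay beside the tail of another. Both genes started beside each other on the same strand in 21 cases (5.72%), 19 of them with overlapping gene spans. Their starts were a median of 0 bases apart (quartiles 0 and 0), so most were 1 start listed for 2 genes. Tails of both genes met in 2 cases (0.545%). Among all pairs of gene ends at most 2000 bases apart, 1120 were head-to-head, 964 head-to-tail, 180 same-strand starts and 852 tail-to-tail. Another 415 were same-strand tails, and 1347 had a strand that was not read. The other 132 of the 499 summits, among them all 21 on chromosome 8, had a pair with at least 1 gene whose strand was not read. These are described without orientation.

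In head-to-tail pairs the summit was usually on the side of the start. It was nearer the start than the tail in 40 of 54 cases (74.1%, 61.1 to 83.9), with a median of 299 bases to the start and 546.5 bases to the tail. The 2 tail-to-tail summits scored 7.37, beside PRR7 and DBN1, an actin-binding protein gene of neurons, and 3.39, between TMEM53 and RNF220, a ubiquitin ligase gene. The score at TMEM53 and RNF220 was the lowest of all 499.

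How often such pairs carried SP1 was then counted over every pair of the annotation. Of 4522 pairs of protein-coding genes with ends at most 2000 bases apart, 477 had an SP1 summit within 1000 bases of both ends, or 10.5% (9.69 to 11.5). Head-to-head pairs carried one in 268 of 1120 cases, or 23.9% (21.5 to 26.5). Among same-strand starts the share was 24 of 180 (13.3%, 9.13 to 19.1), among head-to-tail pairs 62 of 964 (6.43%) and among tail-to-tail pairs 3 of 852 (0.352%). A lone start, with no other gene end within 2000 bases, had a summit in 1076 of 11158 cases (9.64%, 9.11 to 10.2), and a lone tail in 32 of 11545 (0.277%). Pairs were counted only where 1 summit was within 1000 bases of both ends, a stretch no wider than at a lone start. Counted singly, 559 of 2200 starts in head-to-head pairs had a summit within 1000 bases (25.4%, 23.6 to 27.3), and neighbours share summits. A further 28 head-to-head pairs (2.5%) had a summit within reach of 1 start only.

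The gap, or number of bases between the starts, went with the share of head-to-head pairs that carried SP1. Pairs with a gap of 0 to 100 bases had a summit in 17.7% (12.99 to 23.6) and pairs with a gap of 101 to 250 bases in 20.7% (16.7 to 25.3). The share was 35.9% (29.0 to 43.4) at 251 to 500 bases and 51.0% at 501 to 1000 bases, where it rests on 26 of 51 pairs (37.7 to 64.1). Over 1000 bases it was 17.8%, or 8 of 45, and there the stretch within 1000 bases of both starts narrows by construction. Pairs whose genes overlapped at their starts had 21.5% (17.4 to 26.3). The best score per pair followed the same order, with medians of 7.51, 7.88, 10.01 and 12.7 over the 4 classes from 0 to 1000 bases.

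**Figure D1:**
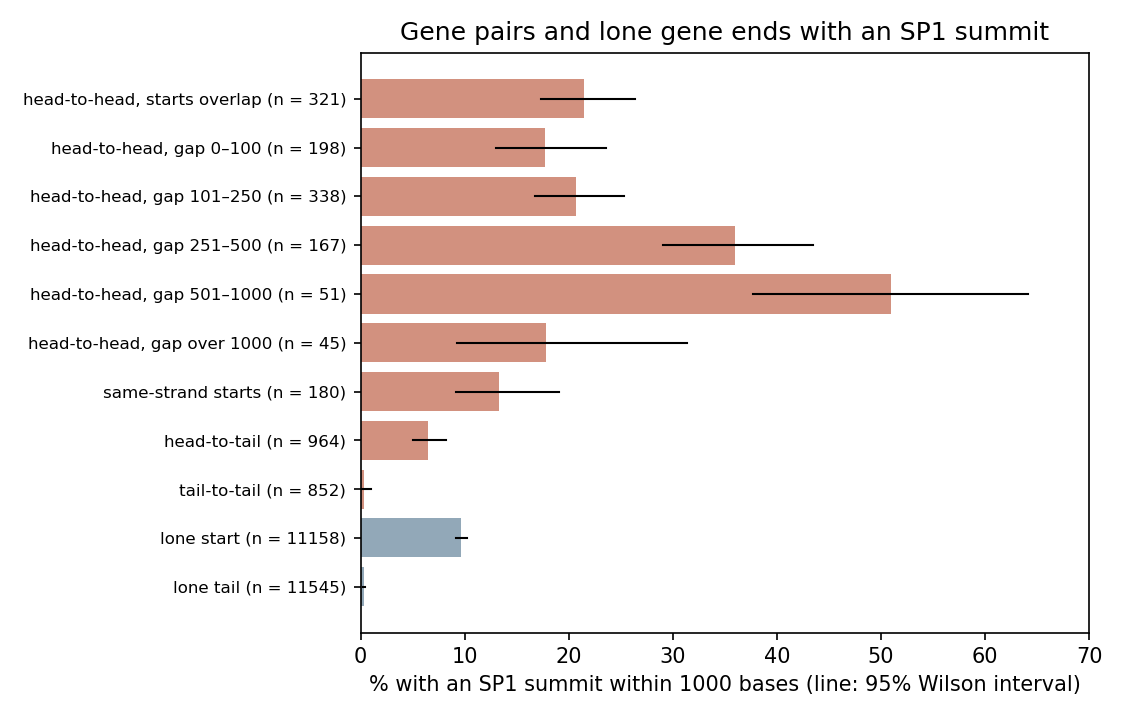
Bars give the percentage of gene pairs, by arrangement and by bases between head-to-head starts, and of lone gene ends with an SP1 summit within 1000 bases of every end counted, with 95% Wilson intervals as lines and n on the axis. Head-to-head pairs with gaps of 501 to 1000 bases reached 51.0%, against 9.64% of lone starts, and pairs of tails and lone tails were near 0.

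The 290 head-to-head summits lay at 255 pairs, with a median of 164.5 bases between the starts (quartiles -159 and 316, range -1579 to 1639). A negative gap means that the 2 genes overlap, with each start that many bases inside the other gene, as was so for 79 summits (27.2%). The median summit was 163 bases from the nearer start and 379 bases from the farther one. Summits lay on the lower-coordinate side of the midpoint between the starts in 141 cases and on the higher-coordinate side in 149.

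Most summits did not lie between the starts. Only 102 of 290 did (35.2%, 29.9 to 40.8), and the share differed with the gap. For gaps of 0 to 250 bases, 1 of 110 summits was between the starts (0.909%, 0.161 to 4.97), and the median summit was 256 bases from the midpoint while the median gap was 144 bases. For gaps of 251 to 1000 bases, 47 of 94 were between them (interval 40.1% to 59.9%). Within that range the share was 27 of 64 at 251 to 500 bases and 20 of 30 at 501 to 1000 bases. All 7 summits at gaps over 1000 bases lay between the starts, which the rule itself requires there. A wider gap gives more room between the starts, so part of this order is set by construction. Where the genes overlapped, 47 of 79 summits lay between the starts (59.5%, 48.5 to 69.6), so that the order with the gap holds only for genes that do not overlap. Among summits above the median score of the SP1 list the counts were 0 of 70 for gaps of 0 to 250 bases and 39 of 77 for gaps of 251 to 1000 bases.

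**Figure D2:**
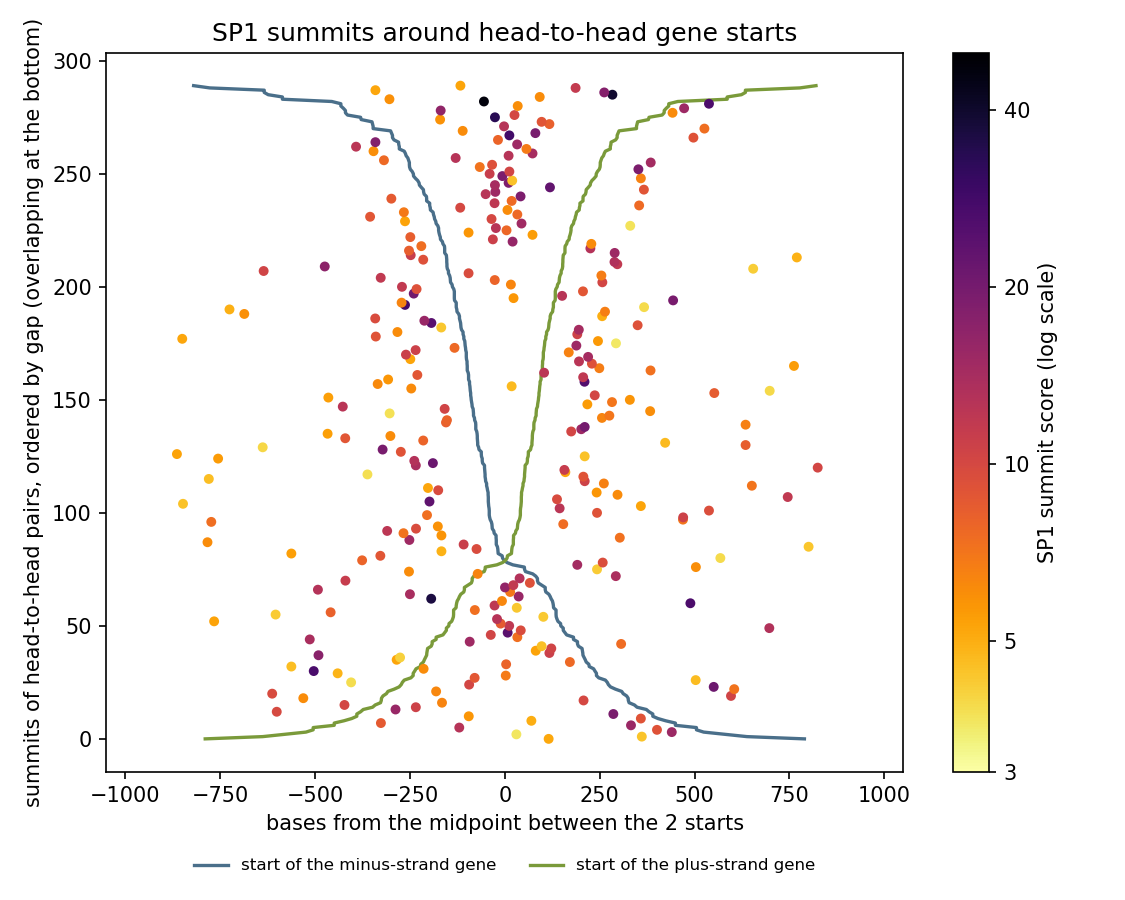
Each point is 1 of the 290 head-to-head summits, placed by its distance in bases from the midpoint between the 2 starts and stacked by gap, with lines for the starts and colour for the score on a log scale. Between the starts lie 1 of 110 summits at gaps of 0 to 250 bases, 47 of 94 at gaps of 251 to 1000 bases and 47 of 79 at overlapping genes.

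Few summits lay in the last 100 bases before a start. Taken from the nearer start, 9 of 290 head-to-head summits (3.10%, 1.64 to 5.79) lay there, against 24 of 1252 (1.92%, 1.29 to 2.84) at single starts. From 101 to 250 bases inside the gene lay 34.8% of head-to-head summits (29.6 to 40.5) and 18.8% of single-start summits (16.7 to 21.03). From 251 to 500 bases before the start lay 29 of the 290 head-to-head summits (7.05% to 13.99%) and 30.3% of single-start summits (27.8 to 32.9). In all, 203 of 290 head-to-head summits were inside the nearer gene (64.5% to 74.98%). Over all 290, upstream ones included, the median position was 104 bases past the start. At single starts 537 of 1252 were inside (42.9%, 40.2 to 45.7), and the median position over all 1252 was -177 bases. Between 2 close starts a summit can be no farther before the nearer start than the middle of the gap, which limits the upstream share by construction.

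**Figure D3:**
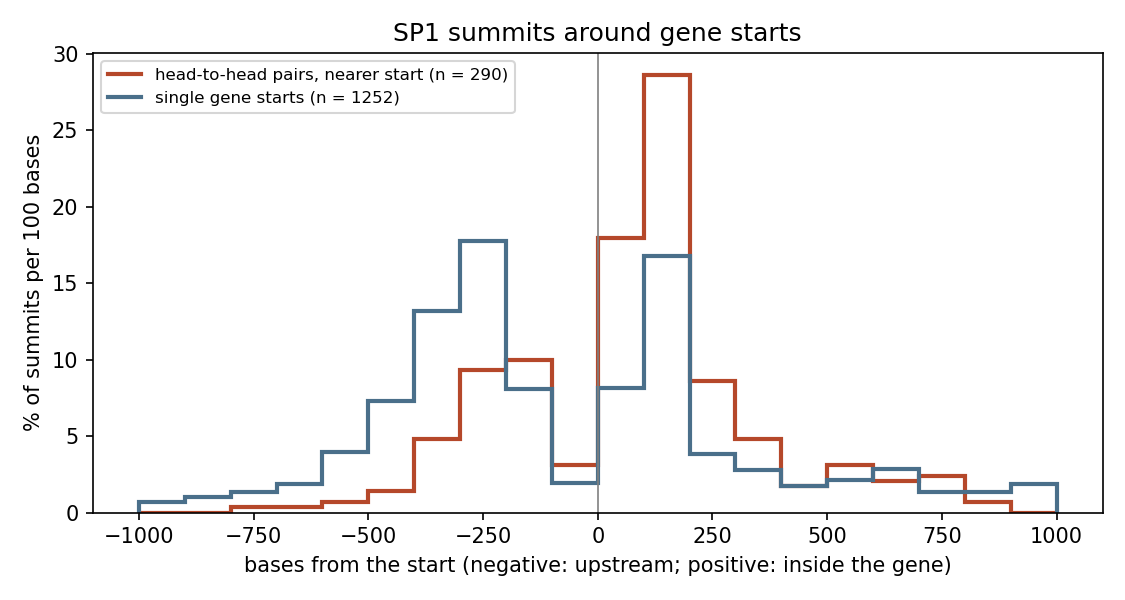
Lines give the percentage of SP1 summits per 100 bases, by distance in bases from the nearer start of head-to-head pairs (n = 290) and from single gene starts (n = 1252), with negative values before the start. Both lines dip in the 100 bases before the start, and head-to-head summits peak in the second 100 bases inside the gene while single-start summits have a peak on either side.

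Of the head-to-head pairs with a summit, 231 had 1 and 37 had 2. Among 35 pairs that were the nearest pair of both summits, the 2 summits lay a median of 504 bases apart (315 to 1059), and in 25 pairs they stood on opposite sides of the midpoint. MEPCE and ZCWPW1 were such a pair, with scores of 23.3 and 11.7 at 944 bases from each other. CKS1B, which encodes a partner of cyclin-dependent kinases, and the adaptor gene SHC1 had scores of 17.04 and 11.8 at a distance of 771 bases. HNRNPUL2 and TTC9C had 28.2 and 9.10 at 485 bases, both on one side of the midpoint. These 3 examples were chosen after their values were seen.

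A summit's score is given as -log10, of either a p-value or a q-value, and it depends on the depth of the library as well as on enrichment. At shared gene ends the median was 8.76 (quartiles 6.12 and 12.4, range 3.39 to 46.8). At single gene ends it was 7.70 (5.91 and 10.6), and away from gene ends 5.21 (4.34 and 6.45). Scores above 10 were reached by 192 of the 499, or 38.5% (34.3 to 42.8), against 29.0% at single ends and 17.4% of all SP1 summits off chromosome 19. Shared ends held 2.22% of the 495 lowest-scoring summits and 22.1% of the 494 highest-scoring ones. Single ends also took a larger share of high scores, 11.7% of those lowest and 53.04% of those highest.

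The difference of medians between shared and single ends was 1.06 (0.486 to 1.48, combined from the order-statistic intervals of the 2 medians). The nearest end was a median of 169 bases away at shared ends and 279 bases at single ends. By distance to the nearest end, the medians were 9.11 at shared and 7.95 at single ends at 0 to 100 bases, 9.01 and 8.56 at 101 to 250 bases, and 8.84 and 7.60 at 251 to 500 bases. At 501 to 1000 bases they were 5.87 and 6.79, over 51 shared-end and 296 single-end summits. Shared ends thus had the higher median in 3 of 4 distance classes. Where the nearest end was within 250 bases in both groups, a setting chosen after seeing the data, the difference was 0.73 with an interval that included 0 (-0.06 to 1.15). Head-to-head summits had a median of 8.85 and single starts 7.86, and within 250 bases the difference was 0.71 (-0.23 to 1.6). That interval included 0 too.

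Among arrangements, medians were 8.85 for head-to-head, 8.46 for head-to-tail (7.56 to 11.5) and 7.82 for same-strand starts (5.47 to 9.31), with overlapping intervals. The 132 pairs of unread strand had 8.96 and the 18 summits reaching 3 or more genes 9.24. Single tails had 5.51, and 3 of their 39 summits scored above 10 (7.69%). By gap, the median of head-to-head summits was 7.37 at 0 to 100 bases, 7.81 at 101 to 250, 9.48 at 251 to 500 and 11.2 at 501 to 1000 bases, with 9.19 for overlapping starts. The 34 summits whose second gene end was 900 to 1000 bases away, just inside the rule, had a median of 8.38, and the 18 at 1000 to 1100 bases, just outside it, 6.22.

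**Figure D4:**
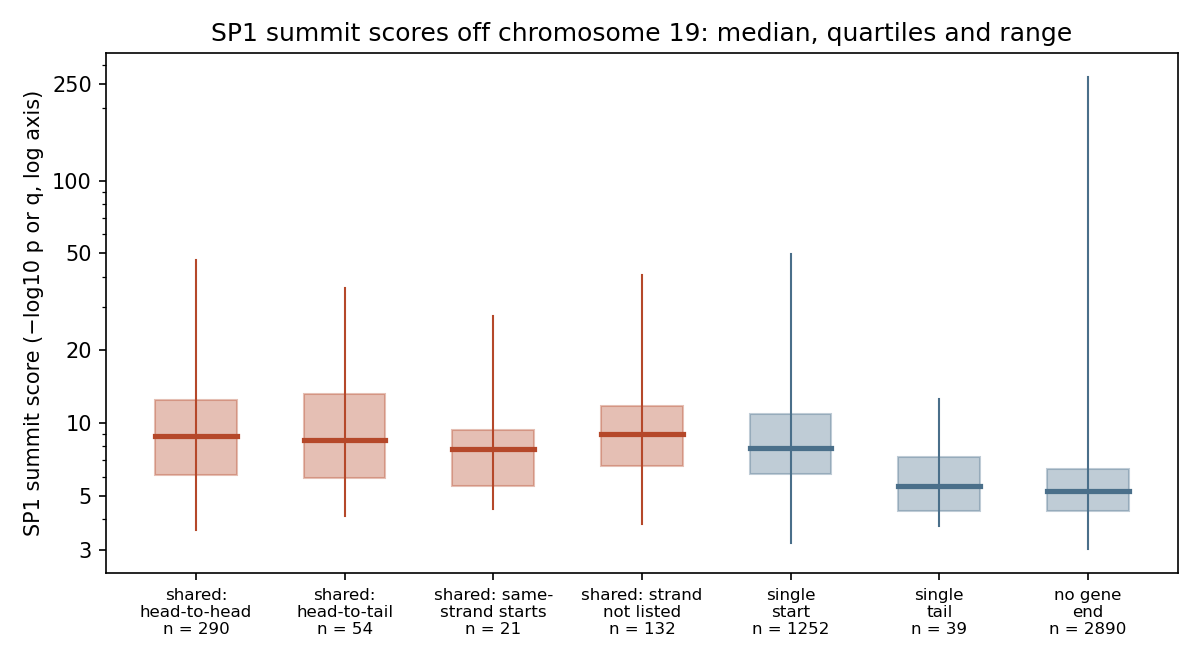
Score of SP1 summits off chromosome 19 on a log axis, with the median as a thick line, the quartiles as a box and the full range as a thin line, for shared gene ends by arrangement, single starts, single tails and summits at no gene end. Head-to-head summits have a median of 8.85 and single starts 7.86, and the medians at single tails and away from gene ends are 5.51 and 5.21.

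The 15 highest-scoring shared ends had genes of varied function. NAIF1, a gene of nuclear apoptosis induction, and SLC25A25, a mitochondrial carrier gene for ATP-Mg and phosphate, had the highest score, 46.8, at chromosome 9 position 128067721. That summit was 401 and 511 bases from their starts and between them. KLC4, a kinesin light chain gene, and MRPL2, a mitochondrial ribosomal protein gene, followed with 40.8 on chromosome 6. TYW1, which acts in tRNA modification, and SBDS, a ribosome maturation factor gene, had 39.4 on chromosome 7 over a gap of 1246 bases. SNRPD3 and GUCD1 had 36.4, and MRPS28, another mitochondrial ribosomal protein gene, with TPD52 had 36.1.

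The next in order was the STX5 summit described above. PHRF1, a ubiquitin ligase gene, scored 34.5 beside the tail of LOC124902805. CRYZL1 and the endocytosis scaffold gene ITSN1 had 33.6, at 354 and 406 bases from their starts. RSRC2 and KNTC1, a kinetochore checkpoint gene, had 32.5. TTC9C and HNRNPUL2, an RNA-binding protein gene, had 28.2, and the centrosome genes CEP170 and SDCCAG8 with 27.9. ATF7, a factor of the ATF/CREB family, and the read-through gene ATF7-NPFF share 1 start and had 27.5. PRDX5, an antioxidant enzyme gene, and TRMT112, a partner of several methyltransferases, overlapped, with starts 475 bases inside each other, and had 26.9. USP5, a deubiquitinase gene, and CDCA3, a gene of mitotic entry, had 26.6.

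The summit lay between the starts at NAIF1 and SLC25A25, TYW1 and SBDS, CRYZL1 and ITSN1, and TTC9C and HNRNPUL2. It lay outside them at SNRPD3 and GUCD1, CEP170 and SDCCAG8, PRDX5 and TRMT112, and USP5 and CDCA3. No H3K27ac summit was within 5000 bases of any of the 15.

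H3K27ac summits were rarely called beside SP1 at shared ends. One lay within 1000 bases of 4 of the 499 summits, or 0.802% (0.312 to 2.04), against 25 of 1553 at single ends (1.61%, 1.09 to 2.37) and 130 of 2890 away from gene ends (4.50%, 3.80 to 5.32). Over all SP1 summits off chromosome 19 the share was 3.22%. At 5000 bases they were 10 of 499 at shared ends and 39 of 1553 at single ends (2.51%). The intervals of shared and single ends overlapped at both distances. The H3K27ac list held 3201 summits in all, so most promoters had none, and weaker signal would not appear in it. With or without SP1, 62 of 11158 lone starts had an H3K27ac summit within 1000 bases (0.556%, 0.434 to 0.712). Of the 1120 head-to-head pairs, 14 had one within 1000 bases of both starts (1.25%, 0.746 to 2.09). A low share was thus not particular to SP1 summits at shared ends.

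The 4 places were as follows in order of SP1 score. EIF3B, a translation initiation factor gene, and SNX8, a sorting nexin gene, had an SP1 score of 10.9 and an H3K27ac summit of 14.8 at 26 bases from it. CDC45, a part of the replicative helicase, and UFD1, a partner of the segregase p97, had 9.11 and an H3K27ac summit of 5.99 at 201 bases. IKBIP and APAF1, the gene of the apoptosome scaffold, had 7.19, with an H3K27ac summit of 5.05 at 983 bases. ASPRV1, a skin protease gene, and PCBP1, an RNA-binding protein gene, had 4.57 and an H3K27ac summit of 6.60 at 153 bases. Scores of the 2 lists are not on a common scale.

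The ranked regions that the authors deposited are labelled as enhancers. Whether places near gene starts were left out when they were made is not known here, so low shares at gene ends may be set in advance. Of the 499, 2 lay in an SP1 region (0.401%, 0.110 to 1.45) and none in an H3K27ac region, against 37 (2.38%) and 1 of the 1553 at single ends. Away from gene ends 78.5% lay in an SP1 region and 2.91% in an H3K27ac region, and over all SP1 summits off chromosome 19 the shares were 46.7% and 1.72%. The 2 were the tail-to-tail summits, at PRR7 and DBN1 in the region ranked 218 and at TMEM53 and RNF220 in that ranked 871 of 2356.

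Ends of non-coding genes were also counted. An end of a long non-coding RNA gene was within 1000 bases of 40 shared-end summits (8.02%, 5.94 to 10.7) and of 393 single-end summits (25.3%, 23.2 to 27.5), against 13.3% of all SP1 summits off chromosome 19. A miRNA gene end was as near to 5 of the 499 (0.429% to 2.32%), against 15 of the 1553 at single ends and 0.607% of all. A tRNA gene end was as near to 1 of the 499 (0.0354% to 1.13%), against 13 at single ends (0.837%) and 0.728% of all.

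The letters of the promoters were compared over genes that have a window at their outermost start. Of the 892 genes at shared-end summits 625 had one. A GC box, GGGCGG on either strand, was in 494 of these windows (79.0%, 75.7 to 82.0). It was in 81.9% (79.4 to 84.1) of 1044 windows of genes with a single-start summit, in 68.2% (65.8 to 70.6) of 1438 windows of head-to-head genes with no SP1 summit, and in 58.0% of all 12772 windows. The longer GGGGCGGGG, which contains the GC box, was in 35.4% (31.7 to 39.2), against 41.7% at single starts, 17.7% (15.8 to 19.8) at head-to-head genes with no summit and 22.1% overall. Median GC content was 63.7% at shared ends, 66.3% at single starts, 65.0% at head-to-head genes with no summit and 62.7% over all windows. Of head-to-head genes alone, 77.7% of 435 windows with SP1 held a GC box (73.6 to 81.4), above the interval of those without. Their median GC content was 63.3%, below that of those without.

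Other promoter letters were also counted, each on both strands. CCAAT, the site of NF-Y, was in 46.4% of shared-end windows (42.5 to 50.3), 44.0% at single starts, 36.9% at head-to-head genes with no summit (34.4 to 39.4) and 36.9% of all windows. CCGGAA, the core of the ETS family's site, was in 32.6% (29.1 to 36.4), 30.4%, 39.6% (37.1 to 42.2) and 22.8% in the same order. Of the head-to-head genes with SP1, 34.0% held it (29.7 to 38.6), an interval that overlapped that of those without. TGCGCA was in 17.4% (14.7 to 20.6) of shared-end windows, 15.2% at single starts, 15.8% (13.99 to 17.8) at head-to-head genes with no summit and 10.9% of all windows. AAGATGGC was in 8.32% (6.40 to 10.7), 6.23%, 6.33% (5.18 to 7.71) and 3.96% in the same order. TATAAA, the TATA box, was in 3.68% (2.46 to 5.46) at shared ends, 4.89% at single starts, 3.81% to 6.03% (69 of 1438) at head-to-head genes with no summit and 10.2% of all windows. For these 3 motifs the intervals of shared ends and of head-to-head genes with no summit overlapped. TGACGTCA, the cyclic AMP response element, was in 2.88% at shared ends, 4.02% at single starts, 3.06% at head-to-head genes with no summit and 2.61% of all windows. A summit base was inside 201 windows, and 79.6% of these held a GC box and 26.9% the longer form.

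**Figure D5:**
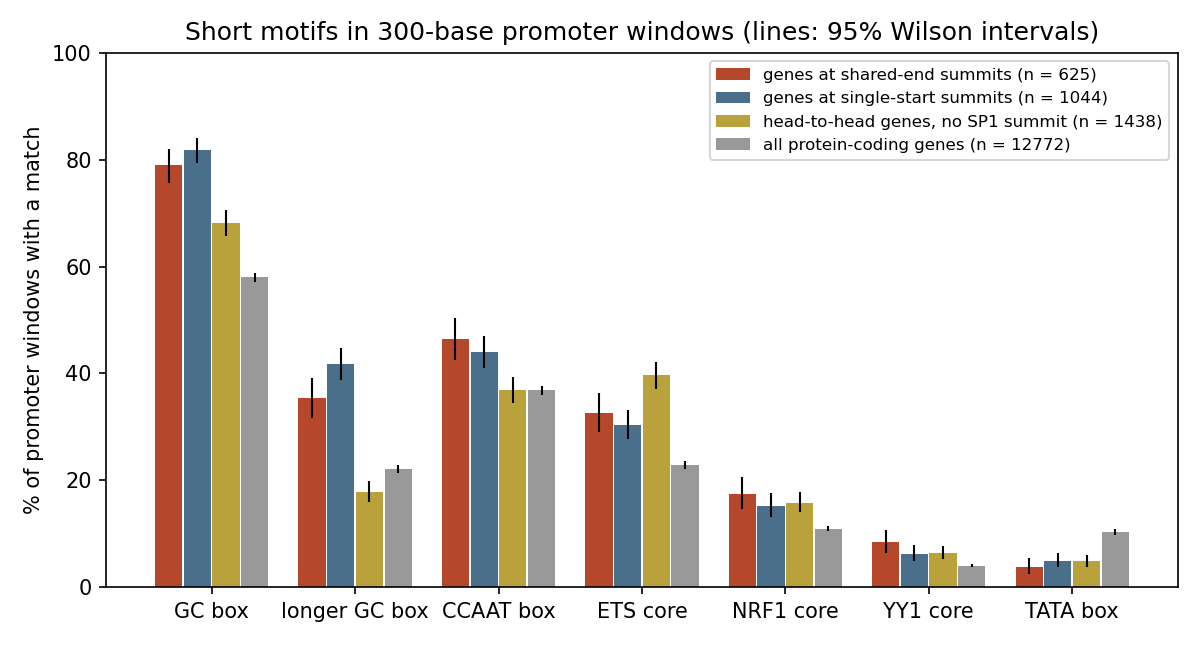
Bars give the percentage of 300-base promoter windows with at least 1 match on either strand to each of 7 short motifs, with 95% Wilson intervals, for genes at shared-end summits, genes at single-start summits, head-to-head genes with no SP1 summit and all protein-coding genes. GC boxes are in 79.0% of shared-end windows, 81.9% at single starts, 68.2% at head-to-head genes with no summit and 58.0% of all windows.

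Gene lists of processes that often use shared promoters were then counted by the genes with a shared-end summit. Tails count as ends in these counts, so a counted gene need not have the summit at its start. Of all 18586 protein-coding genes off chromosome 19, 4.8% had one, and of the 6541 with a gene end of another within 2000 bases, 13.6% did. DNA replication and repair had 13 of 81 genes (16.05%, 9.63 to 25.5), and 13 of the 52 with a close neighbour (interval 15.2% to 38.2%). ORC6 had the highest score, 19.1. ORC4, another subunit of the origin recognition complex, had 9.73 with MBD5.

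Splicing and RNA processing had 10 of 66 genes (15.2%, 8.44 to 25.7). Beside SNRPD3 these included HNRNPA1, an RNA-binding protein gene beside the heterochromatin protein gene CBX5, with 20.4, and HNRNPK with RMI1 at 12.1. The proteasome list had 6 of 40 (interval 7.06% to 29.1%), among them a gene of proteasome assembly rather than of a subunit. PSME2, an activator subunit, with RNF31 had 19.6, PSMD13, a lid subunit, with the mitochondrial deacetylase gene SIRT3 had 14.95, and PSMC5, an ATPase of the base, with FTSJ3 had 14.1. Aminoacyl-tRNA synthetases had 5 of 36 (13.9%, 6.08 to 28.7), among them CARS2 with ING1 at 15.6 and VARS2 with GTF2H4 at 6.29.

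Chaperones had 6 of 52 (11.5%, 5.40 to 22.97), led by the prefoldin gene PFDN6 with WDR46 at 14.6. AHSA1, an activator of HSP90, with VIPAS39 had 12.5 and HSP90AA1 itself, with WDR20, 10.3. Cytosolic ribosomal proteins had 7 of 66 (10.6%, 5.23 to 20.3), with modest scores of 8.94 at RPL23A, 7.38 at RPL7 and 6.52 at RPL4. Mitochondrial ribosomal proteins had 6 of 73 (8.22%, 3.82 to 16.8), yet held some of the highest scores, 40.8 at MRPL2, 36.1 at MRPS28 and 19.5 at MRPS18B. Their median best score was 17.99, against 5.59 for cytosolic ribosomal proteins, over 6 and 7 genes, and 9.10 over all 892 genes.

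Respiratory chain and ATP synthase genes had 4 of 61 (6.56%, 2.58 to 15.7), with 8.07 at NDUFB11, 7.81 at NDUFB6 and 7.68 at NDUFB3, all subunits of complex I. The summit at NDUFB6 was 494 bases from its tail and 79 bases from the start of its neighbour TOPORS. Histones had 4 of 69 (5.80%, 2.28 to 13.98). H4C16 had 16.2, and H1-4, a linker histone gene, and H2BC5 shared a summit of 4.81. That summit lay 246 bases from the tail of H1-4 and 760 bases from the start of H2BC5. The list of genes specific to blood, liver, neurons and muscle had 0 of 38, which allows up to 9.18% by the Wilson interval. Only 7 of its genes had a close neighbour, and over these the interval reaches 35.4%. The list is not complete, as MYL11, the fast skeletal muscle gene described above, is not on it and had a shared-end summit of 22.7. For DNA replication and repair, splicing, proteasome, aminoacyl-tRNA synthetases, chaperones and cytosolic ribosomal proteins the intervals lay above 4.8%, and for the other lists they included it. These are descriptions, as neighbouring genes share summits. Among genes with a close neighbour, the interval lay above 13.6% for DNA replication and repair, splicing and the proteasome. For the proteasome it rests on 6 of 20 genes, the assembly gene included (14.5% to 51.9%).

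Textbook bidirectional pairs were looked up by name. Of 22, 18 had ends at most 2000 bases apart in the annotation, and 9 had an SP1 summit within 1000 bases of both genes. Over all close gene pairs the share with such a summit was 10.5%, and over head-to-head pairs 23.9%. SIRT3 with PSMD13 had 14.95, and PDCD10, a gene of vascular integrity, with SERPINI1 had 10.1 with 828 bases between the starts. CDC45 and UFD1 had 9.11, and the DNA damage kinase gene ATM with NPAT, a histone gene activator, 8.99. MUTYH, a base excision repair gene, and TOE1 had 7.37.

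The other 13 pairs had none. Among them, HSPD1-HSPE1, COL4A1-COL4A2, COL4A3-COL4A4, SURF1-SURF2, RANBP1-TRMT2A, TBP-PSMB1, PRKDC-MCM4, BRCA2-ZAR1L and H2AC11-H2BC11 had ends at most 2000 bases apart. PPAT-PAICS, CRYAB-HSPB2, LRRC49-THAP10 and H2AC4-H2BC3 had ends farther apart by their gene spans.

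Shared-end summits were unevenly spread over chromosomes. Chromosome 17 held 61, chromosome 1 held 52 and chromosome 11 held 47. They made up 18.95% of the SP1 summits of chromosome 11, 17.8% on chromosome 17 and 17.05% on chromosome 22. Of close gene pairs, 15.1% on chromosome 17 (11.9 to 19.1), 3.61% on chromosome 5 (2.29 to 5.63) and 3.47% on chromosome 15 (1.49 to 7.87) carried SP1. Every pair of ends counts here, tails included, and same-strand tails carried SP1 in 1 of 415 pairs. Chromosome 5 had 499 close pairs for 904 protein-coding genes, against 455 for 2062 on chromosome 1. These shares thus also depend on the kinds of pairs each chromosome holds, which was not tested.

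The identity of the cells was checked from summits at marker genes. Of 9 lung and epithelial markers, NAPSA had an SP1 summit at an end, scoring 6.69, of 4 mesenchymal markers SNAI1 had one, scoring 9.88, and of 2 blood markers neither did. No marker had an H3K27ac summit at an end, and none was at a shared end, so these lists bear little on the label.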

How the data were processed

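The authors deposited, for each of 2 antibodies, a list of summits with a −log10 p-value or q-value, which of these not stated. They also deposited a list of ranked regions, labelled as enhancers, whose score is a rank. The lowest summit score was 3.00 for SP1 and 3.02 for H3K27ac. Per the submitters' processing notes, the build is hg38 and the tools are cutadapt 2.5 and deepTools 3.4.1, whose roles are not stated. Neither aligner nor peak caller is given in the sources used here. Depth is unknown, as there are no read counts. Precision is given as 95% Wilson intervals for shares and order-statistic intervals for medians. These cover counting error over summits, genes or pairs, which are not replicates, and with 1 library per antibody no test was made.

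Gene spans came from RefSeq (GRCh38.p14), with 20037 protein-coding genes, 18586 of them off chromosome 19. Strand was read from RefSeq promoter windows for 14657 of these 18586 genes. No window was on chromosome 8, so its genes are absent from the counts by strand and of promoter windows. Spans give outermost ends only, so alternative starts inside a gene, exons and introns were not used. Positions are 1-based. A gap is the number of bases between 2 starts.

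Genes were named by rule: pairs of the 15 highest summits, pairs with H3K27ac within 1000 bases, the 3 highest summits among those with the most genes, up to 3 genes per list, up to 8 textbook pairs with a summit and all without one, and up to 10 promoter windows that hold a head-to-head summit, none from chromosome 8. Any other gene is marked in the text. A few items that this rule selects are not reported here. The members and lists were chosen with earlier results of these data known. Alternatives covered distance, chromosome 19, LOC genes, merged summits, score, H3K27ac distance, overlapping spans and motif. The calculations were tested on simulated data. Python 3.11.15, pandas 2.3.3, numpy 2.4.6, scipy 1.17.1 and matplotlib 3.10.9 were used.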

Additional observations from a re-analysis of the deposited data

How the results depend on the processing

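No paired analysis was possible because each antibody has a single library. Of 40 alternative values, 32 stayed within the 95% interval of the value reported, 8 did not, and 0 changed sign. Shares and median scores cannot change sign, so the last count bears only on the score differences and the gaps. The share of SP1 summits at shared ends was 6.25% with 500 bases, 13.03% with 2000 bases and 15.8% where scores exceeded the median. The share of head-to-head pairs was 84.8% with 500 bases and 71.5% with 2000 bases. With scores above the median only, 17.4% of head-to-head pairs carried SP1. The median gap was 232 bases without overlapping spans, and 35.4% of windows held the longer GC box. These shares move by construction with the distance allowed, the number of summits kept and the length of the motif. The difference of scores between shared and single ends lay between 0.60 and 1.27 over its alternatives, and its interval included 0 in both settings restricted to 250 bases. What depth limits cannot be stated, since the files give none.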
